A study of Mus musculus with 6 samples.

Results

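The 10 genes described here encode enzymes of the breakdown of the branched-chain amino acids leucine, isoleucine, and valine: *Bcat1*, *Bcat2*, *Bckdha*, *Bckdhb*, *Dbt*, *Bckdk*, *Ivd*, *Mccc1*, *Hibch*, and *Pcca*. *Bckdk* encodes a kinase that switches a step of it off, and is counted with the enzymes throughout. All 10 were taken by name, as the genes to which the RefSeq accessions of 13 array probes map. They are 10 of the 19011 named genes tested. RNA from interscapular brown adipose tissue (iBAT) of 3 control and 3 *ob/ob* samples was hybridized to 1 single-dye Agilent mouse array each. All samples came from male C57BL/6 mice, labeled as 16 weeks old. The *ob/ob* genotype is a spontaneous loss of leptin in every cell of the animal, so obesity and the missing hormone cannot be told apart in these mice. The control genotype is given only as control. Neither the labels nor the methods say whether tissue of several mice was pooled or whether the replicates were separate animals, so p values measure the spread between these samples. The tissue was extracted whole, and fewer cells of a type and less RNA per cell cannot be told apart.

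Breakdown of these amino acids starts with a reversible transamination, by cytosolic BCAT1 or mitochondrial BCAT2. The resulting ketoacids are then committed to oxidation by the branched-chain ketoacid dehydrogenase complex (BCKDH) of the mitochondrial matrix, whose E1 subunits are BCKDHA and BCKDHB and whose E2 core is DBT. The kinase BCKDK phosphorylates and switches off E1, and the phosphatase PPM1K switches it on again. After this step the routes part, toward ketone bodies and acetyl-CoA for leucine, toward propionyl-CoA for valine, and toward both for isoleucine. Brown fat takes up these amino acids during cold exposure and oxidizes them for heat, with SLC25A44 as their mitochondrial carrier.

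Values are log2 signals after quantile normalization, which gives every array the same distribution, and differences are *ob/ob* minus control on that log2 scale. A difference of 1 is a doubling of signal. A probe's signal was compared between arrays. Signals of different probes were set together to choose or average a gene's probes, in medians of gene lists, and on scales relative to such a median. The 2 groups did not each hold together. By Spearman's rho over all probes, given as a description, the pair of control 1 and control 2 (0.964) and the pair of *ob/ob* 1 and *ob/ob* 2 (0.967) were alike. Control 3 was closer to that *ob/ob* pair (0.915 and 0.944) than to its own group (0.642 and 0.730), and *ob/ob* 3 was closer to control 1 (0.858) than to its own group (0.573 and 0.488). Between 83.5% and 89.9% of the spots on an array were well above background. With these 6 arrays limma called none of the 35448 probes at an adjusted p under 0.05, and the lowest adjusted p was 0.154. Whether the labels of control 3 and *ob/ob* 3 are right was not tested. The labels were kept, and every difference below rests on them. Results are given for all arrays and again with control 3 and *ob/ob* 3 left out.

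By the brightest probe of each gene, none of the 10 enzymes passed the adjusted threshold with all 6 arrays, and none passed an unadjusted p of 0.05, which 3.73% of all genes did. Mean signal in *ob/ob* iBAT was below that of the controls for 6 of the 10 and above it for 4, and the median difference was -0.39, against -0.09 over all genes tested, of which 57.2% were lower. This median moved with single arrays, to -1.11 without *ob/ob* 3 and -0.88 without control 3, and to -0.04, -0.0038, and 0.10 without control 1, *ob/ob* 1, and *ob/ob* 2. The means ran from a 2.43-fold lower signal for *Bckdha* to a 2.08-fold higher one for *Hibch*. The groups did not overlap for 1 enzyme, *Bcat1*, which was higher. Of all genes, 8.0% did not overlap, 3.78% with *ob/ob* higher and 4.22% with *ob/ob* lower. Control 1, control 2, and *ob/ob* 3 were the 3 highest arrays for 6 of the 10 enzymes (*Bckdha*, *Bckdhb*, *Dbt*, *Bckdk*, *Ivd*, and *Mccc1*) and for 29.8% of all genes.

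**Figure D1:**
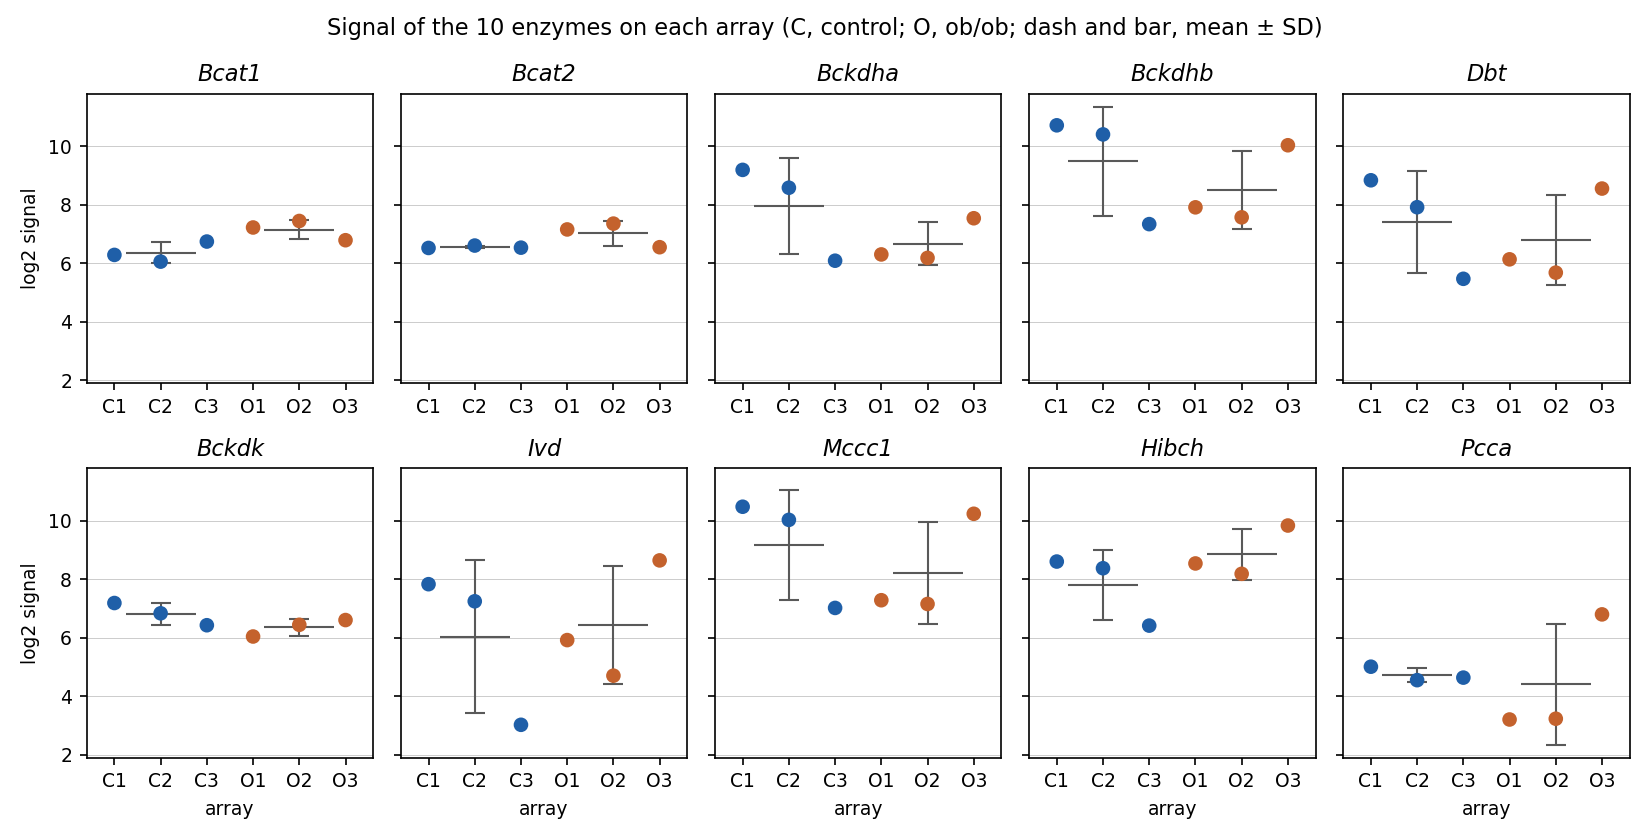
Log2 signal (vertical axis, quantile normalized) of the probe that stands for each of the 10 enzymes on the 3 control arrays (C1 to C3, blue) and the 3 *ob/ob* arrays (O1 to O3, orange), where the dash and bar are the mean ± SD of a group and panels are not to be compared in height. In the panels of *Bckdha*, *Bckdhb*, *Dbt*, and *Mccc1*, C3 lies near O1 and O2, and O3 lies nearer C1 and C2 than the other *ob/ob* arrays do.

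The transaminases were measured by 4 probes. For *Bcat1*, the brightest of 3 probes read 6.28, 6.05, and 6.74 in the controls and 7.22, 7.44, and 6.79 in *ob/ob* iBAT. All *ob/ob* arrays lay above all controls, *ob/ob* 3 by a margin far smaller than the spread within a group. The difference was 0.79 (SE 0.36, past no threshold in limma), and the exact permutation test gave p = 0.10, which is the smallest that 3 samples against 3 allow. The other *Bcat1* probes disagreed with each other. One read 5.06, 4.91, and 5.08 against 5.53, 5.75, and 6.60. Its difference of 0.94 (SE 0.39) passed an unadjusted p of 0.05 in limma. The other read 6.32, 6.48, and 6.76 against 6.13, 5.83, and 6.15, a difference of -0.48 (SE 0.31). Neither of these probes overlapped between groups, in opposite directions, so no single direction holds for the gene. The array files do not hold the probes' sequences, and which transcripts each probe reads was not tested.

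*Bcat2*, the mitochondrial transaminase, read 6.52, 6.60, and 6.53 in the controls and 7.15, 7.35, and 6.55 in *ob/ob* iBAT. The controls were tight (6.55 ± 0.04, SD, n = 3), *ob/ob* 1 and 2 lay above them, and *ob/ob* 3 lay among them. The difference was 0.47 (SE 0.35, exact permutation p = 0.20). Without *ob/ob* 3, the differences of *Bcat1* (0.97) and *Bcat2* (0.70) both passed an unadjusted p of 0.05 in limma, as did 10.3% of all genes. In the methods' t-test on all 6 arrays *Bcat1* alone of the 10 passed it, as did 4.32% of all genes.

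The 3 BCKDH subunits shared 1 pattern over the arrays. *Bckdha*, the catalytic E1 alpha subunit, read 9.19, 8.58, and 6.08 in the controls and 6.30, 6.18, and 7.54 in *ob/ob* iBAT. Control 3 was the lowest of all 6 arrays, and *ob/ob* 3 lay between its group and the other controls. The difference was -1.28 (SE 0.88, 95% CI -3.40 to 0.84, exact permutation p = 0.40). Without control 3 it was -2.21 (SE 0.56), and it and *Bckdhb* were the 2 enzymes past an unadjusted p of 0.05, as were 9.56% of all genes. *Bckdhb*, the E1 beta subunit, read 10.71, 10.40, and 7.34 against 7.91, 7.57, and 10.03, a difference of -0.98 (SE 1.09). *Dbt*, the E2 core, read 8.84, 7.91, and 5.47 against 6.13, 5.68, and 8.55, a difference of -0.62 (SE 1.11). For both, *ob/ob* 3 stood with control 1 and control 2, and control 3 was the lowest array. *Dld*, the E3 subunit that BCKDH shares with pyruvate dehydrogenase, differed by 0.60 (SE 0.65).

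*Bckdk*, the kinase that switches BCKDH off, read 7.19, 6.84, and 6.43 in the controls and 6.04, 6.44, and 6.61 in *ob/ob* iBAT. It spanned 1.15 log2 units over the arrays, where the 3 subunits spanned 3.11 to 3.38. The difference was -0.45 (SE 0.36, exact permutation p = 0.30). The phosphatase *Ppm1k*, detected on 5 arrays, differed by 0.38 (SE 0.65). Neither regulator passed an unadjusted p of 0.05, and their intervals (-1.32 to 0.42 and -1.19 to 1.94) leave both directions possible.

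Downstream in the leucine route, *Ivd*, the isovaleryl-CoA dehydrogenase, varied most of the 10. It read 7.83, 7.25, and 3.02 in the controls and 5.92, 4.70, and 8.65 in *ob/ob* iBAT, and was not well above background on control 3. The range of 5.62 log2 units over the arrays was far wider than the difference of 0.39 (SE 1.55). *Mccc1*, the biotin-bearing subunit of methylcrotonyl-CoA carboxylase, read 10.48, 10.03, and 7.02 against 7.28, 7.16, and 10.24, a difference of -0.95 (SE 1.21). A second *Mccc1* probe gave a difference of -0.86 (SE 0.73). Control 1, control 2, and *ob/ob* 3 were its highest arrays too, but *ob/ob* 3 (7.18) lay below control 1 (8.25) and control 2 (7.91). Its partner subunit *Mccc2* differed by -0.07 (SE 1.23).

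In the valine route, *Hibch*, which frees 3-hydroxyisobutyrate from its CoA, read 8.61, 8.38, and 6.42 in the controls and 8.54, 8.19, and 9.84 in *ob/ob* iBAT. It was the only enzyme of the 10 beyond BCKDH whose signal in *ob/ob* 1 and 2 was near that of control 1 and 2, with *ob/ob* 3 above all other arrays. The difference was 1.06 (SE 0.74, exact permutation p = 0.50). *Pcca*, the biotin-bearing subunit of propionyl-CoA carboxylase, was dim, at 5.01, 4.55, and 4.64 against 3.21, 3.23, and 6.80. Only *ob/ob* 3 of the *ob/ob* arrays was well above background for it, and the difference of -0.32 (SE 1.0) averages 2 arrays below the controls and 1 above them. Its partner *Pccb* differed by 0.05 (SE 0.38).

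Of 24 other genes of the pathway (further enzymes, carriers, transporters, and a regulator), 22 were measured, and *Mmaa* and *Slc7a8* were detected on fewer than 3 arrays. With all 6 arrays none of the 22 passed, by its brightest probe, an unadjusted p of 0.05. Their mean signal was on the lower side in *ob/ob* iBAT for 8 and on the higher side for 14, and the median difference was 0.18. The groups did not overlap for 1 of them, *Mmab*, which makes the cobalamin cofactor of the last step toward succinyl-CoA, with a difference of -0.60 (SE 0.30). Its other 2 probes, which differed by -0.11 and -0.18, overlapped between groups. The carrier *Slc25a44* differed by -0.01 (SE 0.31) in its brighter probe and by -1.47 (SE 0.34) in a dimmer one, which did not overlap between groups and passed an unadjusted p of 0.05 in limma, so the array does not settle its direction.

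**Figure D2:**
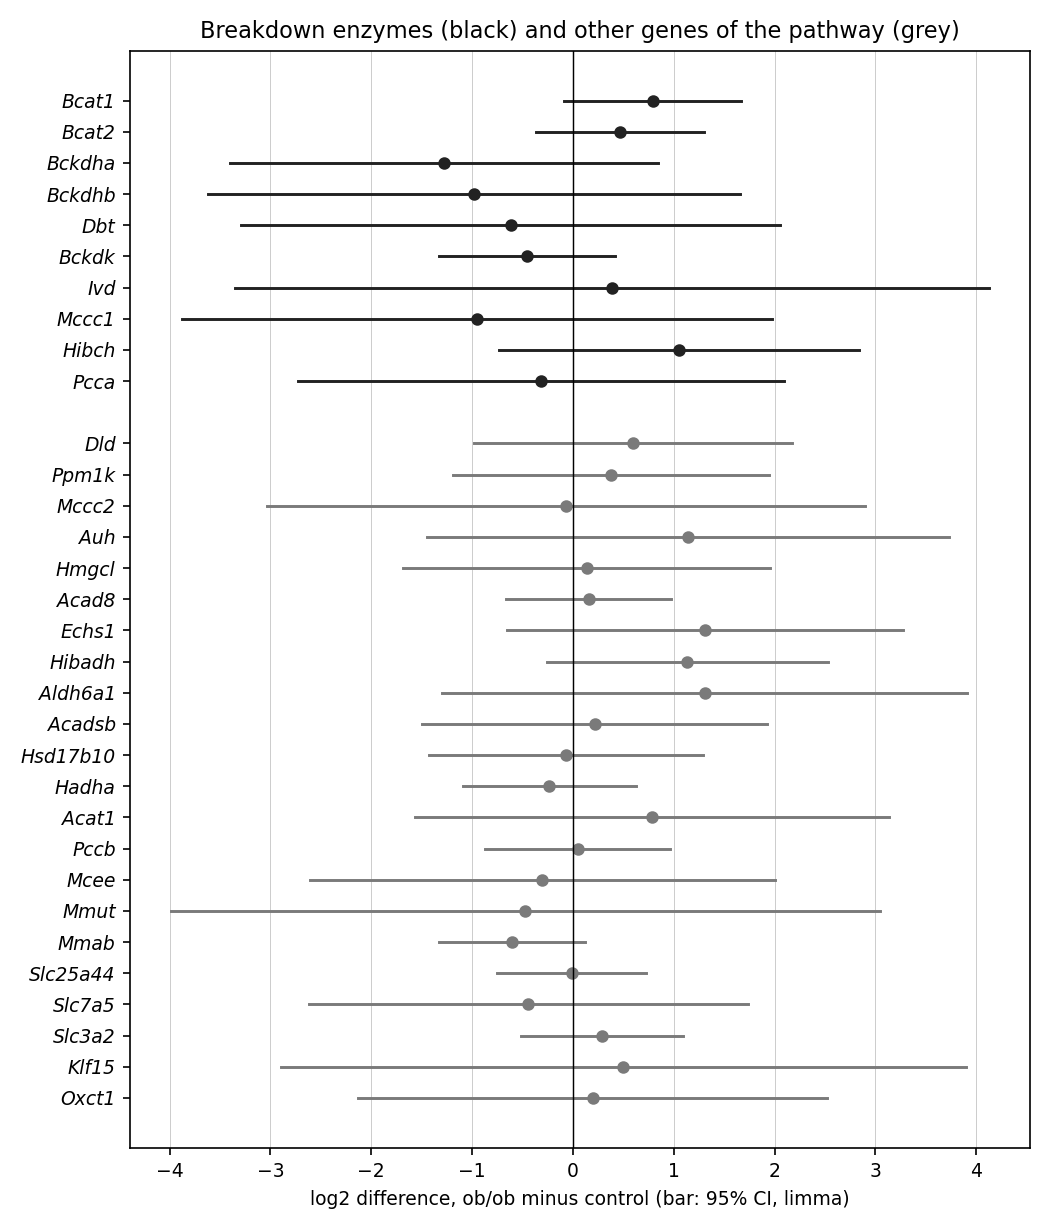
Difference in log2 signal between *ob/ob* and control iBAT (horizontal axis, points) with its 95% confidence interval from limma (bars), 3 arrays a group, for the 10 enzymes (black) and 22 other genes of the pathway (grey). Every interval includes 0, and the intervals of *Bckdha*, *Bckdhb*, *Dbt*, *Ivd*, *Mccc1*, and *Pcca* span over 4 log2 units.

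With control 3 and *ob/ob* 3 left out, 9 of the 10 enzymes passed an adjusted p of 0.05, 7 lower and 2 higher in *ob/ob* iBAT. The same rule called 49.3% of all genes (27.0% lower and 22.3% higher), so a call was common in this fit, and at an unadjusted p of 0.05 the share was 55.1%. These arrays were left out because they stood apart in the same data, and 2 arrays against 2 remained. *Bckdha* differed by -2.65 (SE 0.27), *Bckdhb* by -2.82 (SE 0.25), *Dbt* by -2.47 (SE 0.34), and *Mccc1* by -3.04 (SE 0.25), all with limma. *Ivd* (-2.23) and *Bckdk* (-0.77) were lower too, as was *Pcca*, which was not well above background on either *ob/ob* array that remained, so its size there is only a bound and is not given, and *Bcat1* (1.16) and *Bcat2* (0.69) were higher. *Hibch* was at -0.13 (SE 0.25, 95% CI -0.70 to 0.44). The median of the 10 was -1.89 in these 4 arrays, with *Pcca* at its measured signal. *Mccc2* (-2.16), *Klf15* (-1.93), a transcription factor that drives genes of this pathway, and the methylmalonyl-CoA mutase *Mmut* were lower as well, among 9 of 22 other pathway genes called. *Mmut* (-2.90) was well above background on only 2 of the 3 *ob/ob* arrays, so its size may be only a bound.

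The signals of other mitochondrial routes moved over the arrays in the same way. The median of 19 genes of pyruvate oxidation and the tricarboxylic acid (TCA) cycle read 11.32, 10.69, and 8.43 on the control arrays against 9.72, 9.44, and 11.14 on the *ob/ob* arrays, and that of 16 genes of fatty acid beta-oxidation was 10.91, 10.41, and 8.08 against 9.49, 9.11, and 10.97. The median of the 10 enzymes was 8.22, 7.58, and 6.42 against 6.73, 6.80, and 8.04. Control 1, control 2, and *ob/ob* 3 were the 3 highest arrays for 13 of the 19 TCA genes and 10 of the 16 beta-oxidation genes, beside 6 of the 10 enzymes. With control 3 and *ob/ob* 3 left out, limma called 13 of the 19 and 11 of the 16 lower at an adjusted p under 0.05, beside 7 of the 10 enzymes. The TCA median differed between groups by only -0.05, while it spanned 2.89 log2 units over the arrays.

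Markers of other cell types also moved over these arrays. The median of 10 skeletal muscle markers read 9.98, 10.26, and 7.79 on the control arrays against 6.00, 5.99, and 12.49 on the *ob/ob* arrays, and for 9 of the 10 the highest arrays were control 1, control 2, and *ob/ob* 3. Among them *Myh4*, a fast muscle myosin, read 14.44, 14.96, and 11.16 against 6.97, 6.96, and 14.25, and *Mb*, myoglobin, read 9.98, 9.90, and 5.85 against 5.18, 3.86, and 13.62. Muscle also carries BCKDH, and the part of muscle RNA in the values above was not tested. Brown adipocyte markers had a median of 9.86, 10.21, and 8.26 against 7.51, 7.44, and 7.33, and 9 of 10 were lower in *ob/ob* iBAT. For 6 of the 10 the highest arrays were again control 1, control 2, and *ob/ob* 3, the same share as among the enzymes. *Ucp1*, the uncoupling protein that defines brown fat, was at 13.05, 11.72, and 9.48 against 8.93, 9.12, and 10.03. It was well above background on all 6 arrays, and how much of each sample was brown fat was not tested. Endothelial markers (median 9.08, 9.31, and 7.25 against 6.23, 5.87, and 8.51) and erythrocyte markers (9.08, 7.53, and 6.41 against 6.29, 5.88, and 9.90) were also lower on *ob/ob* 1 and 2 than on control 1, control 2, and *ob/ob* 3, which were the 3 highest arrays for 5 of 6 and 3 of 4 of them. Macrophage markers stood at 6.80, 6.77, and 6.93 against 7.18, 6.99, and 8.53. The parts of these cells were not tested either. Lymphocyte markers had a median between 5.88 and 6.48 on all arrays, and white adipocyte markers between 6.00 and 6.68. Single markers of both lists moved in opposite directions, so these medians do not show that they were steady. Among white adipocyte markers *Lep* differed by 2.07 (SE 0.93) and *Retn* by -1.98 (SE 0.76). Among lymphocyte markers *Ms4a1* differed by 1.16 (SE 0.36) and *Cd3e* by -0.85 (SE 0.51).

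**Figure D3:**
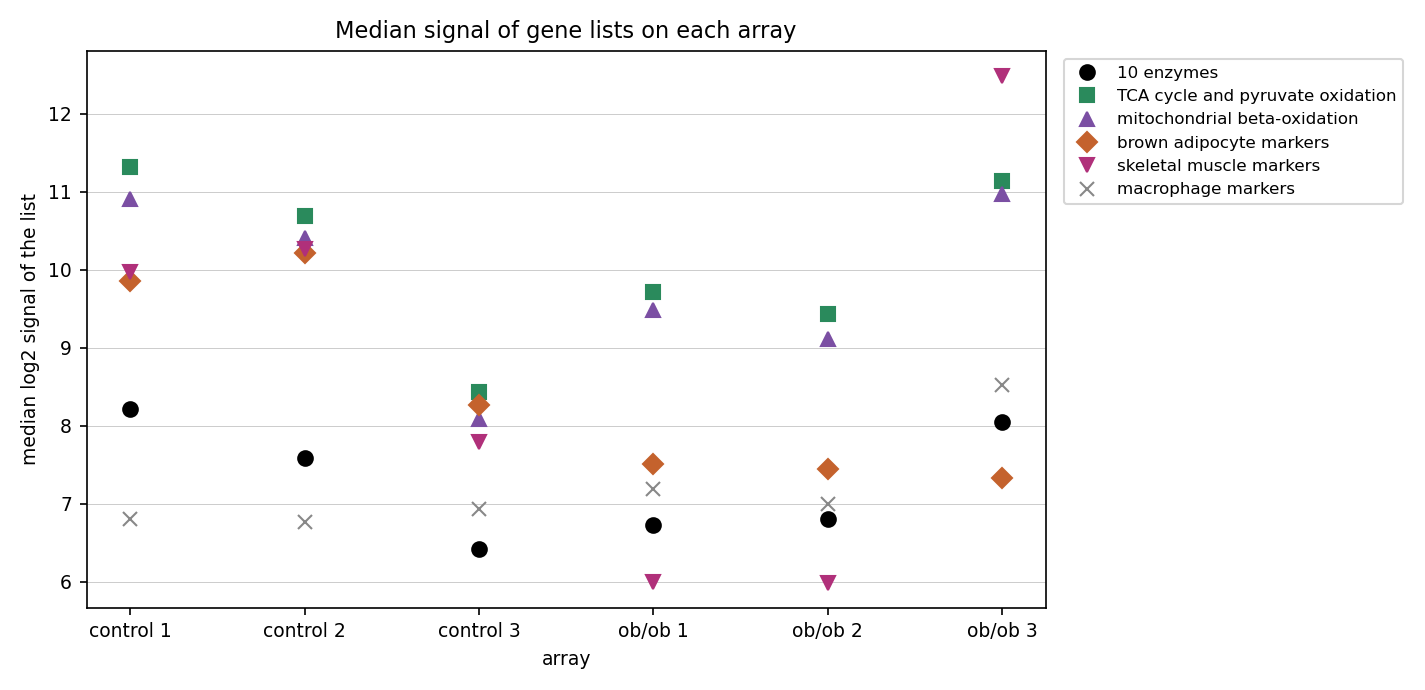
Median log2 signal (vertical axis) of the 10 enzymes and of 5 other gene lists on each of the 6 arrays (horizontal axis), with 1 symbol a list, to be read along a list and not between lists. The enzymes, the TCA list, and the beta-oxidation list are high on control 1, control 2, and *ob/ob* 3, and the muscle list is highest on *ob/ob* 3 (12.49). The brown adipocyte median there (7.33) does not stand for most of its markers. Apart from *Zic1* and *Elovl3*, they were higher on *ob/ob* 3 than on *ob/ob* 1 and 2, such as *Ucp1* (10.03 against 8.93 and 9.12).

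The enzymes were also expressed relative to the TCA list, as the log2 signal of a gene minus the median of that list on the same array, a scale chosen after the values were seen. *Bckdha* stood at -2.13, -2.11, and -2.35 in the controls and at -3.42, -3.26, and -3.61 in *ob/ob* iBAT. All 6 arrays followed their labels, with an SD of 0.13 in the controls and 0.18 in *ob/ob* iBAT, where the SDs of the signal itself were 1.65 and 0.75. The difference was -1.23, or 2.35-fold lower, and lay between -1.32 and -1.14 with any 1 array left out. *Bckdhb* stood at -0.61, -0.29, and -1.09 against -1.81, -1.87, and -1.11, a difference of -0.93 (SE 0.84) with no overlap. Control 3 and *ob/ob* 3 lay within 0.02 of each other for it. *Hibch* stood at -2.72, -2.31, and -2.01 against -1.18, -1.25, and -1.31, a difference of 1.1, or 2.15-fold higher, and lay between 0.92 and 1.27 with any 1 array left out. These were the 3 of 10 enzymes whose groups did not overlap on this scale, and 4.7% of all genes did not overlap (3.27% lower and 1.43% higher). The exact permutation test gave its smallest p, 0.10, for each. None of the 10 passed an unadjusted p of 0.05 in limma on this scale, where 0.594% of all genes did.

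**Figure D4:**
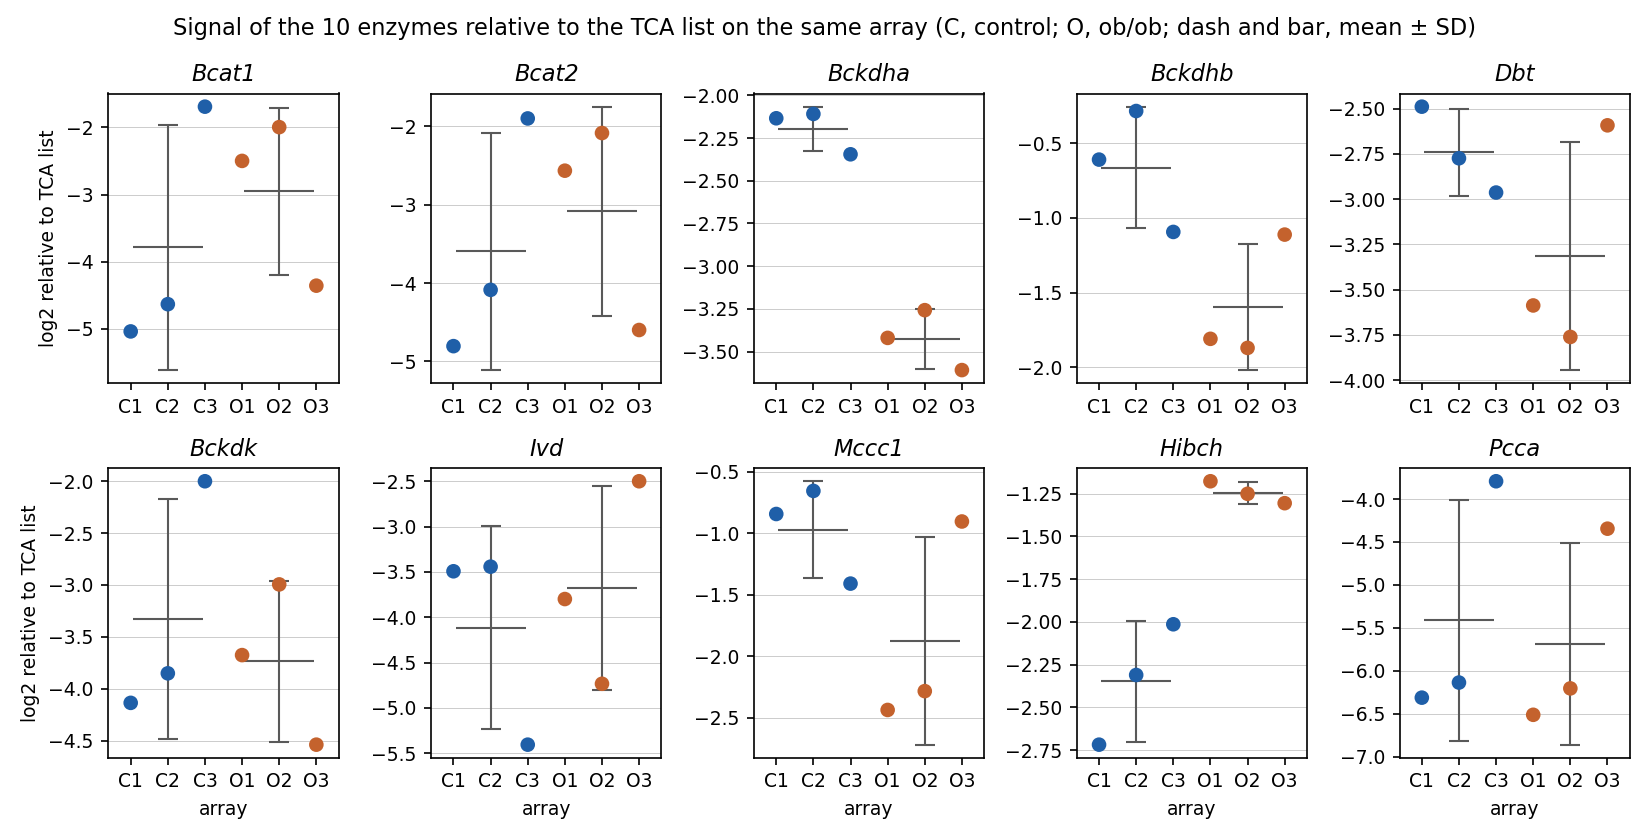
Log2 signal of each of the 10 enzymes minus the median of the 19 TCA genes on the same array (vertical axis, own range in each panel) for the control (C1 to C3, blue) and *ob/ob* (O1 to O3, orange) arrays, with the mean ± SD of a group as dash and bar. The groups part in *Bckdha* and *Hibch*, part by a narrow margin in *Bckdhb*, and overlap in the other 7.

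The remaining enzymes overlapped between groups relative to the TCA list. *Dbt* stood at -2.49, -2.77, and -2.96 against -3.59, -3.76, and -2.59, and *Mccc1* at -0.84, -0.66, and -1.41 against -2.44, -2.28, and -0.90. In both, *ob/ob* 1 and 2 lay below every control and *ob/ob* 3 lay among them. *Dld*, the shared E3 subunit, overlapped with a difference of 0.65, and *Pcca* with one of -0.27. *Bcat1* and *Bcat2*, whose signals hardly followed the TCA list over the arrays, had SDs of 1.25 to 1.83 on this scale against 0.04 to 0.42 in signal, so it widened their spread.

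Of the 22 other pathway genes, 5 did not overlap between groups on this scale, all higher in *ob/ob* iBAT. *Echs1*, the enoyl-CoA hydratase shared with fatty acid oxidation, was higher by 1.36, *Hibadh*, which oxidizes the product of HIBCH, by 1.18, and *Aldh6a1*, the last enzyme of the valine route before propionyl-CoA, by 1.35. Together with HIBCH these 3 catalyze successive steps of valine breakdown. *Acad8*, which feeds them, overlapped (difference 0.20). *Auh* of the leucine route was higher by 1.19 and *Acat1*, the mitochondrial thiolase, by 0.83. The beta-oxidation list held 9 of 16 genes without overlap on this scale (3 higher and 6 lower), so such a split was common in that list too. The TCA list held 5 of 19 (3 higher and 2 lower), but its own median sets the scale, so it is no independent comparison. With the beta-oxidation list as the reference, the same 3 enzymes did not overlap (*Bckdha* -1.34, *Bckdhb* -1.04, *Hibch* 1.0) among 5.58% of all genes, *Hibadh* did overlap, and *Mcee*, an epimerase after propionyl-CoA carboxylase, was lower without overlap (-0.36).

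The upstream sequences of *Bckdha*, *Bckdhb*, and *Hibch* are shown because these 3 separated by label on the TCA scale. They are the bases before the first annotated start in the RefSeq annotation of GRCm38.p6, 5′ to 3′ on the gene's strand, at chr7:25658783-25659011 (minus strand) for *Bckdha*, chr9:83924887-83925110 (plus strand) for *Bckdhb*, where the annotated gene *Gm36278* overlaps, and chr1:52844788-52845037 (plus strand) for *Hibch*. Capitals mark a CCAAT box (CCAAT or ATTGG) or a GC box (GGGCGG or CCGCCC).
Bckdha: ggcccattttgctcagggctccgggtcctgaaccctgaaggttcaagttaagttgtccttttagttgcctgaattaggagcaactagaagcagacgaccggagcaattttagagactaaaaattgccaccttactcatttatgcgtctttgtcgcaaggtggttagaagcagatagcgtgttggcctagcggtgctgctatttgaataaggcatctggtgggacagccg
Bckdhb: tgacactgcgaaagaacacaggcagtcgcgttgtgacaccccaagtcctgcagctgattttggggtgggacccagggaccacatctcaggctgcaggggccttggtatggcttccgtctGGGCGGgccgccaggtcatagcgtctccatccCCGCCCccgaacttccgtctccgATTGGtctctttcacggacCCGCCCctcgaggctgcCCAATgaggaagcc
Hibch: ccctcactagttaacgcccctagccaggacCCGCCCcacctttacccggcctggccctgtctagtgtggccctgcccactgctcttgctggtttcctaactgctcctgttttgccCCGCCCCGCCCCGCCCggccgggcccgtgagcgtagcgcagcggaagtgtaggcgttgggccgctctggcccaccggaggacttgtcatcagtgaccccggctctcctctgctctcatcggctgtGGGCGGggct
The *Bckdha* stretch of 229 bases, 48.5% G and C, held neither motif. The *Bckdhb* stretch of 224 bases held 2 CCAAT boxes and 3 GC boxes, and the *Hibch* stretch of 250 bases, 68.0% G and C, held 5 GC boxes, some sharing a base. Windows of 300 bases around the start were at hand for 9 of the 10 genes (not *Dbt*). A CCAAT box was in a window of 6 of the 9 genes, and a GC box in a window of 4. Of all 32851 windows, 37.4% held a CCAAT box and 35.7% a GC box. A gene was counted if any of its windows matched, so these counts are not on the same footing as the shares of single windows. An ERR element (TCAAGGTCA, 0.423% of windows) and an E-box (CACGTG, 7.15%) were searched on both strands and found in none of the 9. The 3 genes did not share a motif of these 4, and the letters say nothing of a factor's binding.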

How the data were processed

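RNA of iBAT from 3 control and 3 *ob/ob* samples was labeled with Cy3 and hybridized to 1 Agilent array each. For each array the authors deposited the spot intensity from Agilent Feature Extraction (version 11.0.1.1), corrected for background within the array and not normalized between arrays. A second deposited file holds their log2 values after quantile normalization in GeneSpring GX, and its columns correlated at 0.987 to 0.998 (Pearson) with the scanner values of the same array. That table served as an alternative.

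Repeated spots were combined as their mean log2 intensity, and 104 of 39429 probes with outlier flags were left out. RefSeq accessions marked 28623 probes, and 27174 of these took a gene name from the RefSeq annotation of GRCm38.p6, used for names and promoters only, since the array's annotation is of another build. Probes with at least 50% of spots well above background on at least 3 of 6 arrays were kept. Values were quantile normalized and fitted in R 4.3.3 by limma 3.58.1, without covariates, and p values were adjusted over all 35448 probes by the Benjamini-Hochberg method. The brightest probe stood for a gene. Single genes were also tested with a two-sided exact permutation test. Tables and figures used Python (version 3.11.15), matplotlib (3.10.9), numpy (2.4.6), pandas (2.3.3), and scipy (1.17.1). The fit was first tested on simulated data.

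The genes, the lists, and the arrays left out together were chosen with earlier results of these data known. All 10 enzymes are named. Other pathway genes are named where they had an unadjusted p under 0.05 or groups without overlap, or are partners of the 10, and *Acad8*, *Klf15*, *Mmut*, and *Mcee* after their values were seen. The scales relative to the TCA and beta-oxidation lists were added after the data were seen. The alternatives were the 75th percentile, normexp (offset 50), the authors' values, no detection filter, detection on all 6 arrays, the methods' t-test, the replicate number and the scan as blocks, leaving out each array, leaving out control 3 and *ob/ob* 3, and the mean of a gene's probes. Arrays carry no counts, and their number limits the precision.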

Additional observations from a re-analysis of the deposited data

How the results depend on the processing

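No enzyme passed an adjusted p of 0.05 with all arrays, with any 1 array left out, or under the other alternatives run, except that with control 3 and *ob/ob* 3 both left out 9 did, as did 49.3% of all genes. At an unadjusted p of 0.05, 1 enzyme passed in the methods' t-test (*Bcat1*), as did 4.32% of all genes. With both arrays left out 9 did, as did 55.1% of all genes. With any 1 array left out the count lay between 0 and 3. It was 2 without control 3 (*Bckdha* and *Bckdhb*), beside 9.56% of all genes. Without *ob/ob* 3 it was 3 (*Bcat1*, *Bcat2*, and *Pcca*), beside 10.3% of all genes. The median difference of the enzymes was -1.89 with both arrays left out and -1.11 to 0.10 with any 1 left out. Of the 22 other pathway genes, 12 passed an unadjusted p of 0.05 with both arrays left out, near the 55.1% of all genes that did. In the methods' t-test 1 passed (*Mmab*), beside 4.32% of all genes. With normexp 1 passed (*Mmab*), and with the mean of a gene's probes 1 (*Slc25a44*). The share of all genes was not counted for these last 2 alternatives.

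Leaving out 1 array turned *Dbt* (-1.59 to 0.10, positive without control 1), *Ivd* (-1.12 to 1.29, negative without control 3 or *ob/ob* 3), and *Pcca* (-1.51 to 0.28, positive without *ob/ob* 1 or 2, and not well above background on both *ob/ob* arrays left without *ob/ob* 3, where the lowest value is only a bound). *Pcca* was at 0.14 with normexp, and *Ivd* at -2.23 and *Hibch* at -0.13 with both arrays left out. The cause was not tested. By the brightest probe or the mean of a gene's probes, *Bcat1*, *Bcat2*, *Bckdha*, *Bckdhb*, *Bckdk*, and *Mccc1* kept their direction under all alternatives run on signal. They also kept it on the TCA and beta-oxidation scales with all 6 arrays. Another *Bcat1* probe differed by -0.48, so for that gene the direction does not hold for every probe. Relative to the TCA list, both arrays left out gave -1.39 for *Bckdhb* and 1.72 for *Hibadh*. The 75th percentile moved the median of all genes from -0.09 to -0.30. Detection on all 6 arrays gives no value for *Ivd* and *Pcca*.

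Whether same replicate numbers pair the samples is not stated. Deviations of same-numbered arrays from their group means correlated at -0.78, -0.66, and -0.85. These values cannot decide it, because control 3 and *ob/ob* 3 each stood apart from their own group. The replicate block left 0 enzymes called with a median difference of -0.39. Control 1, control 3, and *ob/ob* 1 were scanned together and the others 1 by 1, so the scan block rests on those 3 arrays. It gave a median of -0.89, with *Bckdha* at -1.34, *Bckdhb* at -1.12, and *Hibch* at 1.03.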
